A study of Homo sapiens with 8 samples.

Results

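Epithelial cells hold to each other through adherens junctions, tight junctions and desmosomes, and a set of splicing and transcription factors keeps these structures expressed. In a transition to a mesenchymal state, repressors of the SNAI and ZEB families bind E-box letters in the promoters of such genes and shut them down, while vimentin and N-cadherin take their place. Serous ovarian carcinoma is thought to arise largely from secretory cells of the fallopian tube. It keeps this epithelial programme together with lineage factors such as PAX8, surface antigens such as MUC16 and mesothelin, and the secreted marker WFDC2.

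The genes described here are 37 named members of these programmes, measured in OVCAR-3, an established human ovarian carcinoma cell line. They were chosen by gene symbol, and all 59 array probes that the probe annotation pairs with those symbols were taken, out of 47312 probes and 20043 gene symbols on the array. By role they are E-cadherin and EPCAM, 6 tight junction genes, 6 desmosome genes, 7 regulators of the epithelial state, 8 ovarian lineage or antigen genes and 8 mesenchymal genes. Cells were transfected with siRNA against HBO1 (siHBO1, 4 arrays) or with scramble siRNA (siCTRL, 4 arrays), and RNA was collected 48 h later. HBO1 is the product of KAT7 (older symbol MYST2), the catalytic subunit of histone acetyltransferase complexes. The comparison asks whether the transcript levels of these genes differ with HBO1 siRNA. The labels do not say whether the replicates of a group were separate cultures, and the p-values therefore reflect the array-to-array spread alone, which may be technical.

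On the 8 arrays 43.3% to 46.7% of the probes were detected, meaning a detection p under 0.05 against the array's negative controls. Any pair of arrays correlated at 0.982 to 0.997 (log2 intensities, all probes). Both replicate 1 arrays stood apart from the other 6 on the first principal component, which held 58.2% of the variance. KAT7, the siRNA target, had normalized log2 intensities of 6.66, 6.86, 7.04 and 7.43 on siHBO1 replicates 1 to 4, against 7.67, 7.97, 7.93 and 7.35 on siCTRL replicates 1 to 4. The array labelled siHBO1 replicate 4 was thus not lower than its siCTRL counterpart. The KAT7 log2 fold change was -0.73 (SE 0.19, n = 4 each, limma adjusted p = 0.586, exact 2-sided permutation p = 0.0571, where 0.0286 is the smallest that 4 against 4 arrays allow). With the replicate block the adjusted p was 0.381. The counts of members that passed and the members given with values on every array were therefore also computed without replicate 4, in both groups or in siHBO1 alone.

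OVCAR-3 expressed most of the epithelial and ovarian genes above background, and gave no detectable signal for SNAI1, ZEB1 and ZEB2. Of the 59 probes, 48 were detected on at least 4 of the 8 arrays, against 45.2% of all probes on the array. These 48 probes stand for 30 of the 37 genes, and for 29 of them at least 1 probe was detected on every array. E-cadherin (CDH1), the adhesion molecule of adherens junctions, and the surface adhesion protein EPCAM were detected by all 4 of their probes on every array. So were CLDN1, CLDN3 and CLDN7, which form the paracellular seal of tight junctions, and TJP1, the scaffold that ties them to actin. All 6 desmosome genes were detected on every array by at least 1 probe: the desmosomal cadherins DSG2 and DSC2, the plaque proteins DSP and JUP, and the plakophilins PKP2 and PKP3. Among regulators, the splicing factor ESRP1, the transcription factors GRHL2, OVOL2 and ELF3 and the recycling GTPase RAB25 were detected on all 8 arrays.

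All 8 lineage and antigen genes were detected on every array by at least 1 probe. PAX8, SOX17 and WT1 are transcription factors of Müllerian or serous tumour identity. MUC16 and MUC1 are membrane mucins, WFDC2 is a secreted serum marker, and MSLN (mesothelin) and FOLR1 (folate receptor alpha) are surface proteins used as therapy targets. One probe of FOLR1, ILMN_1698608, was detected on 0 of 8 arrays while the gene's other 2 probes were detected on all 8.

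**Figure D1:**
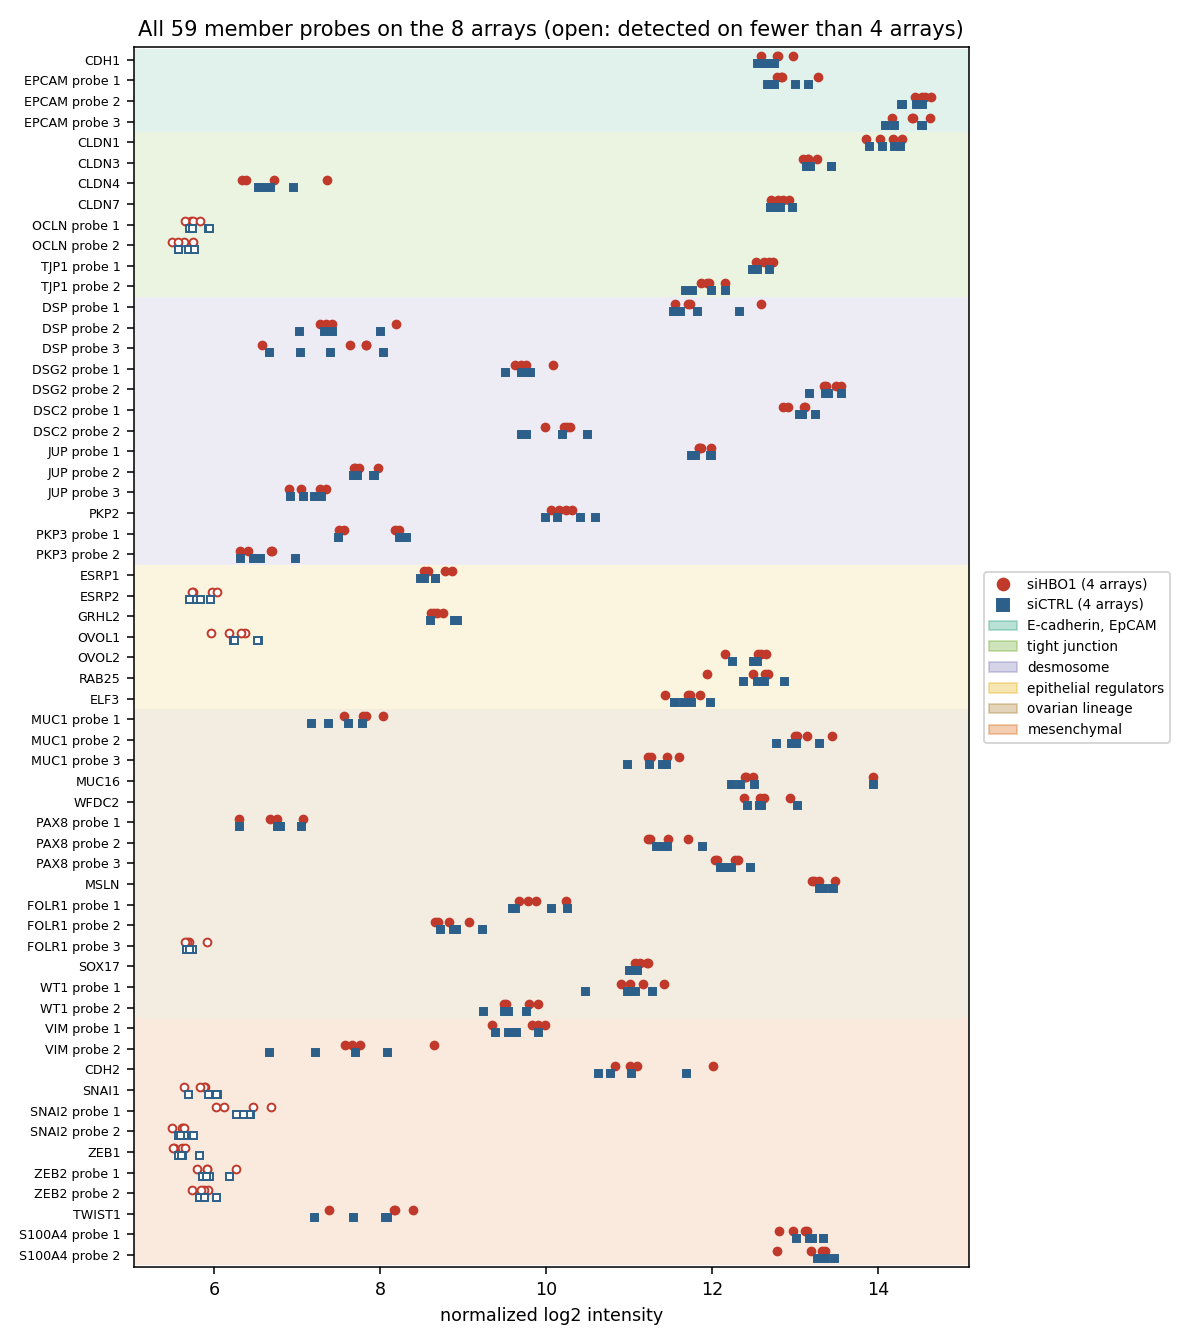
Normalized log2 intensity of each of the 59 member probes (1 line per probe, grouped by role) on the 4 siHBO1 arrays (red circles) and the 4 siCTRL arrays (blue squares). Filled symbols are the 48 probes detected on at least 4 arrays and open symbols the other 11; positions of different probes are not comparable as transcript levels.

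Of the 7 genes without a kept probe, 4 were mesenchymal transcription factors. ZEB1 and both probes of ZEB2, zinc-finger repressors of E-cadherin, were detected on 0 of 8 arrays, with detection p from 0.562 to 0.988 for ZEB1. SNAI1 (Snail) was also detected on 0 arrays. SNAI2 (Slug) was detected on 2 siHBO1 arrays and 0 siCTRL arrays by 1 probe, ILMN_1655740, and on 0 arrays by its other probe. The other 3 genes were epithelial: the tight junction protein occludin (OCLN, 2 probes) and the splicing factor ESRP2 on 0 arrays, and the transcription factor OVOL1 on 0 siHBO1 arrays and 1 siCTRL array. A probe that is not above background gives only an upper bound on its transcript. CLDN4 was close to that bound, detected on 2 siHBO1 arrays and 4 siCTRL arrays. CLDN3 and CLDN4 are neighbouring genes on human chromosome 7 in RefSeq GRCh38.p14.

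The line was not without mesenchymal transcripts. Vimentin (VIM), the intermediate filament of mesenchymal cells, N-cadherin (CDH2), the transcription factor TWIST1 and the calcium-binding protein S100A4 were each detected on all 8 arrays by every probe they have. CDH1 and CDH2 were therefore both detected on every array of both groups. Of markers of other cells, 5 of 8 fibroblast genes (COL3A1, LUM, PDGFRA, PDGFRB and THY1) were detected on 0 arrays, while COL1A1 and COL1A2 were detected on at least 4. Of 5 immune genes with a probe, PTPRC, CD3E and LYZ were detected on 0 arrays, and CD14 and CD68 on at least 4. Of 5 endothelial genes, PECAM1, CDH5 and TEK were detected on 0 arrays, and VWF on at least 4. The mesothelial genes CALB2, LRRN4 and UPK3B (3 of 5 with a probe) and the ciliated-cell genes CAPS and FOXJ1 (2 of 3) were also detected on at least 4. The part of such cells in the results was not tested. All 7 epithelial markers and all 6 serous markers checked were detected on at least 4 arrays, and 4 of the epithelial and all of the serous markers are themselves members.

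E-box letters were looked up in the promoters of the members because the SNAI and ZEB repressors are known to bind CACCTG. RefSeq promoters (250 bases before to 50 after a transcript start, GRCh38.p14) were matched for 22 of the 37 genes. CDH1 (E-cadherin) and EPCAM are among the genes without a matched promoter, so the counts do not cover them. CACCTG, on either strand, occurs in at least 1 promoter of 13 of the 17 matched epithelial and lineage genes and of 2 of the 5 matched mesenchymal genes, against 24.1% of all 27305 genes in the table. Genes with several starts have more chances to match. Among genes with a single listed start it is 6 of 9 epithelial and lineage genes, against 20.7% of all such genes. The letters AACCNGTT, the motif of grainyhead factors such as GRHL2, occur in 0 of the 22, against 2.14% of all genes. The promoters of 4 junction genes are shown with the E-box letters in capitals, 3 for genes detected on every array (CLDN3, CLDN7 and DSP) and 1 for OCLN, which was detected on none. Where a gene has several starts, the promoter with most matches is shown. They lie at chr7:73770221-73770520, minus strand (CLDN3), chr17:7262429-7262728, minus strand (CLDN7), chr6:7541421-7541720, plus strand (DSP) and chr5:69492540-69492839, plus strand (OCLN), and each is written 5′ to 3′ on the gene's strand.
CLDN3: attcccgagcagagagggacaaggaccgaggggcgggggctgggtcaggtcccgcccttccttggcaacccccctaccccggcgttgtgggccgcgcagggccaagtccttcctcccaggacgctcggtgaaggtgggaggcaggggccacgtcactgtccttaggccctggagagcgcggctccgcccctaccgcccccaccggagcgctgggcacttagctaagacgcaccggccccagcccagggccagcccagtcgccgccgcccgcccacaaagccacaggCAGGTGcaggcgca
CLDN7: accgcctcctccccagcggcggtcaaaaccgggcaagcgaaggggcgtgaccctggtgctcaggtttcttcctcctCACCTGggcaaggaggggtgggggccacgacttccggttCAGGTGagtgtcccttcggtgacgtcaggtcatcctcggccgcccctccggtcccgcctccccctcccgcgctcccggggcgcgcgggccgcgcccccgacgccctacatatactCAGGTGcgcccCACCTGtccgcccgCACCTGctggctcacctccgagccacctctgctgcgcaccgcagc
DSP: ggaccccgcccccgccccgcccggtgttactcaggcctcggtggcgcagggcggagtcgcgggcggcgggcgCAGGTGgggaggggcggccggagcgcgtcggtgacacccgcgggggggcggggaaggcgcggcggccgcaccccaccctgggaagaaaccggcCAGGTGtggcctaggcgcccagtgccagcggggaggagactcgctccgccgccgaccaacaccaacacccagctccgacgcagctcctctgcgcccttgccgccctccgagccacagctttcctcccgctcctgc
OCLN: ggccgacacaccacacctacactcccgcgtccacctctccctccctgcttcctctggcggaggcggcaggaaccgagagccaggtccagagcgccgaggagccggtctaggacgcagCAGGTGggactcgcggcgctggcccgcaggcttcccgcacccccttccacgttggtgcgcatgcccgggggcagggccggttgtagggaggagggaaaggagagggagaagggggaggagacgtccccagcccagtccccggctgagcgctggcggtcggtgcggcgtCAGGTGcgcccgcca
CLDN7 holds 5 matches in this window, DSP and OCLN 2 each and CLDN3 1. A match is a string of letters and not a measured binding site.

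None of the genes that could be tested passed the test between siHBO1 and siCTRL cells. Of the 30 genes tested, 0 passed limma at an adjusted p of 0.05 (Benjamini-Hochberg, 17297 genes), where 0.0347% of all genes passed. At an unadjusted p under 0.05 the count was 0 of 30, where 3.79% of all genes stood. With the replicate number as a block 0 of 30 passed, where 0.335% of all genes did, and 1 (TWIST1) had an unadjusted p under 0.05, where 7.6% of all genes did. The 2 groups lay fully apart for 0 of 30 genes, against 2.82% of all genes. EPCAM had the smallest unadjusted p of the 30, 0.160, which ranked 1900 among all genes. All 6 genes that passed in the whole table lie outside this set.

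The differences were small, and most were bounded closely. Log2 fold changes of the 30 genes ran from -0.20 (PKP3) to 0.28 (TWIST1), with a median of 0.01 beside -0.01 over all genes tested, and 18 were positive and 12 negative. For 25 of the 30 genes the difference was smaller than the pooled SD between replicates, or 83.3%, beside 84.4% of all genes tested. The 95% confidence interval of the fit without the block held 0 for all 30, beside 96.2% of all genes tested. It excluded a 2-fold change in either direction for 29 of them, or 96.7%, beside 96.4% of all genes tested, the exception being MUC16. It stayed within 0.5 on the log2 scale for 21, or 70%, beside 64.2% of all genes tested. With the replicate block the interval of TWIST1 was 0.05 to 0.51 and did not hold 0. Without replicate 4 in both groups, 0 of 30 passed and the median was 0.05. With the replicate block added, the lowest adjusted p of the 30 (limma) was 0.560, that of CDH2. Without the array labelled siHBO1 replicate 4 alone, 0 of 30 passed. CDH1 then stood at 0.20, EPCAM at 0.16, MUC16 at 0.16 and WFDC2 at 0.07. PAX8 stood at -0.10, VIM at 0.13, CDH2 at 0.28 and TWIST1 at 0.23.

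**Figure D2:**
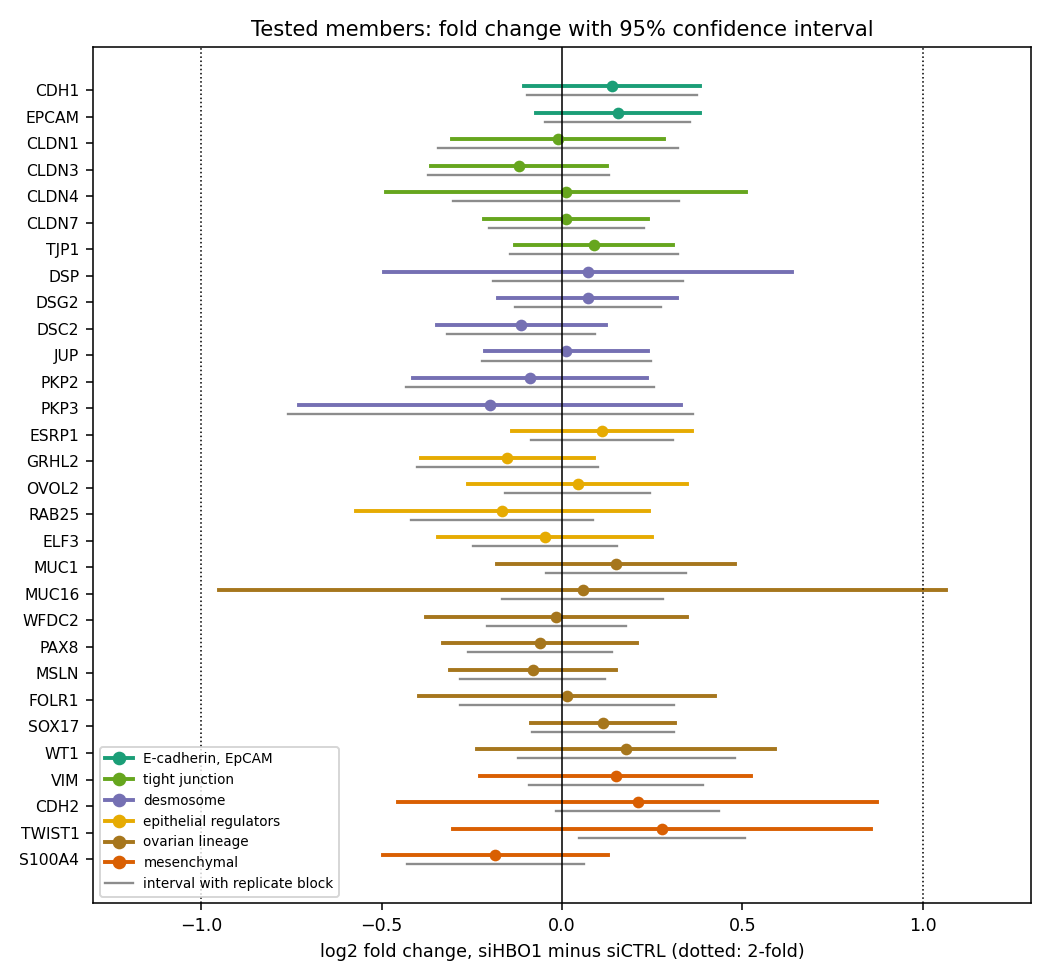
Log2 fold change (siHBO1 minus siCTRL) of the 30 tested genes with its 95% confidence interval from limma, coloured by role, and in grey the interval with the replicate block (n = 4 arrays each). Every coloured interval holds 0, and of these intervals only that of MUC16 reaches a 2-fold change (dotted lines).

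CDH1 had log2 intensities of 12.97, 12.78, 12.78 and 12.59 on siHBO1 replicates 1 to 4, against 12.63, 12.74, 12.54 and 12.65 on siCTRL replicates 1 to 4. The groups overlapped, since the array labelled siHBO1 replicate 4 lay below 3 of the siCTRL arrays. The log2 fold change was 0.14 (SE 0.11, interval -0.11 to 0.38, limma adjusted p = 1.00, or 0.851 with the replicate block). It was 0.08 without siHBO1 replicate 1 and 0.07 without both replicate 1 arrays. Without replicate 4 in both groups, with the replicate block, it was 0.20, the highest value under the alternatives tried.

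EPCAM had log2 intensities of 14.44, 14.56, 14.63 and 14.52 on siHBO1 replicates 1 to 4 by the probe that stands for the gene, against 14.28, 14.53, 14.45 and 14.28 on siCTRL replicates 1 to 4. The value was higher in siHBO1 in every numbered pair, although the ranges overlapped. The log2 fold change was 0.15 (SE 0.10, interval -0.07 to 0.38, limma adjusted p = 1.00, or 0.775 with the replicate block), and the other 2 probes gave 0.04 and 0.08.

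Tight junction genes spread on both sides of 0. The 5 tested ran from -0.12 (CLDN3) to 0.09 (TJP1) on the log2 scale with a median of 0.01, and 0 passed. For CLDN1, CLDN3, CLDN7 and TJP1 the interval stayed between -0.36 and 0.31. Both TJP1 probes gave 0.09. CLDN4, the dim one, had the widest interval of the 5, from -0.49 to 0.51.

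Desmosome genes also held to no direction, with 3 positive and 3 negative. They ran from -0.20 (PKP3) to 0.07 (DSP) with a median of -0.04. The intervals of DSG2 (-0.18 to 0.32), DSC2 (-0.35 to 0.12), JUP (-0.21 to 0.24) and PKP2 (-0.41 to 0.23) excluded a change of more than 0.5 in either direction. Those of DSP (-0.49 to 0.64) and PKP3 (-0.73 to 0.33) did not. For DSC2 and JUP the kept probes differed in sign, at 0.15 and -0.11 for DSC2 and from -0.03 to 0.02 for JUP.

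Regulators of the epithelial state had a median of -0.05. Of the 5 tested, ESRP1, which sets epithelial splicing, stood at 0.11 (interval -0.14 to 0.36) and was higher in siHBO1 in every numbered pair. GRHL2, which activates CDH1 and claudin genes, stood at -0.15 (interval -0.39 to 0.09). OVOL2, a repressor of ZEB1, stood at 0.04, RAB25 at -0.17 and ELF3 at -0.05. None passed.

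The 8 ovarian lineage and antigen genes had a median of 0.03, with 5 positive and 3 negative and 0 past the threshold. PAX8 had log2 intensities of 12.31, 12.06, 12.02 and 12.27 on siHBO1 replicates 1 to 4, against 12.45, 12.09, 12.14 and 12.23 on siCTRL replicates 1 to 4. The ranges overlapped for most of their width, and the log2 fold change was -0.06 (SE 0.12, interval -0.33 to 0.21), with its other 2 kept probes at -0.11 and -0.02. WFDC2 had log2 intensities of 12.93, 12.58, 12.62 and 12.38 on siHBO1 replicates 1 to 4, against 13.01, 12.55, 12.59 and 12.42 on siCTRL replicates 1 to 4. Replicate 1 was the highest array and replicate 4 the lowest in both groups, and the log2 fold change was -0.02 (SE 0.16, interval -0.38 to 0.35).

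MUC16 had log2 intensities of 13.93, 12.39, 12.40 and 12.49 on siHBO1 replicates 1 to 4, against 13.93, 12.50, 12.34 and 12.22 on siCTRL replicates 1 to 4. Both replicate 1 arrays were high and the other 6 close together, whichever siRNA was given. The log2 fold change was 0.06 (SE 0.45, interval -0.95 to 1.06). With the replicate number as a block the interval narrowed to -0.17 to 0.28, which excludes a 2-fold change.

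Among the rest of the group, MUC1 stood at 0.15 and was higher in siHBO1 in every numbered pair by the probe that stands for the gene. Its 3 probes lay between 0.12 and 0.32, but its other probes were not higher in every pair. SOX17 stood at 0.11 and was likewise higher in every pair. Its exact 2-sided permutation p of 0.0571 was the smallest of the 30, a gene singled out after the values were seen. WT1 stood at 0.18 with both probes alike, MSLN at -0.08 and FOLR1 at 0.01. The other kept probe of FOLR1, ILMN_2346339, differed in sign, at -0.12.

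Mesenchymal genes had a median of 0.18 over the 4 tested, and 0 passed. TWIST1 had log2 intensities of 7.38, 8.40, 8.17 and 8.16 on siHBO1 replicates 1 to 4, against 7.20, 8.08, 8.06 and 7.67 on siCTRL replicates 1 to 4. It was higher in siHBO1 in every numbered pair, but both replicate 1 arrays were lower than all others, so the groups overlapped. The log2 fold change was 0.28 (SE 0.26, interval -0.30 to 0.85, limma adjusted p = 1.00). With the replicate block the interval was 0.05 to 0.51 and the adjusted p 0.536. It stood at 0.49 without siHBO1 replicate 1, 0.09 without siCTRL replicate 1 and 0.15 without siHBO1 replicate 2.

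VIM had log2 intensities of 9.90, 9.34, 9.98 and 9.83 on siHBO1 replicates 1 to 4, against 9.90, 9.38, 9.64 and 9.54 on siCTRL replicates 1 to 4. Replicates 1 and 2 were nearly level between the groups and replicates 3 and 4 were higher in siHBO1. The log2 fold change was 0.15 (SE 0.17, interval -0.23 to 0.52, limma adjusted p = 1.00, or 0.837 with the block). Leaving out arrays moved it between 0.07 (without siCTRL replicate 2) and 0.29 (without siHBO1 replicate 2). The other probe of VIM, ILMN_2058251, gave 8.64, 7.58, 7.76 and 7.66 on siHBO1 replicates 1 to 4, against 8.08, 7.22, 6.65 and 7.69 on siCTRL replicates 1 to 4. Its log2 fold change was 0.50, with an unadjusted p of 0.160 in limma over all kept probes, or 0.0237 with the block (adjusted p = 0.561).

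CDH2 had log2 intensities of 12.00, 11.09, 10.83 and 11.01 on siHBO1 replicates 1 to 4, against 11.69, 10.76, 10.62 and 11.02 on siCTRL replicates 1 to 4. It was higher in siHBO1 in 3 of the 4 pairs and level in replicate 4. The log2 fold change was 0.21 (SE 0.30, interval -0.45 to 0.87, limma adjusted p = 1.00, or 0.694 with the block). S100A4 went the other way, at -0.19 and -0.17 by its 2 probes (limma adjusted p = 1.00).

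**Figure D3:**
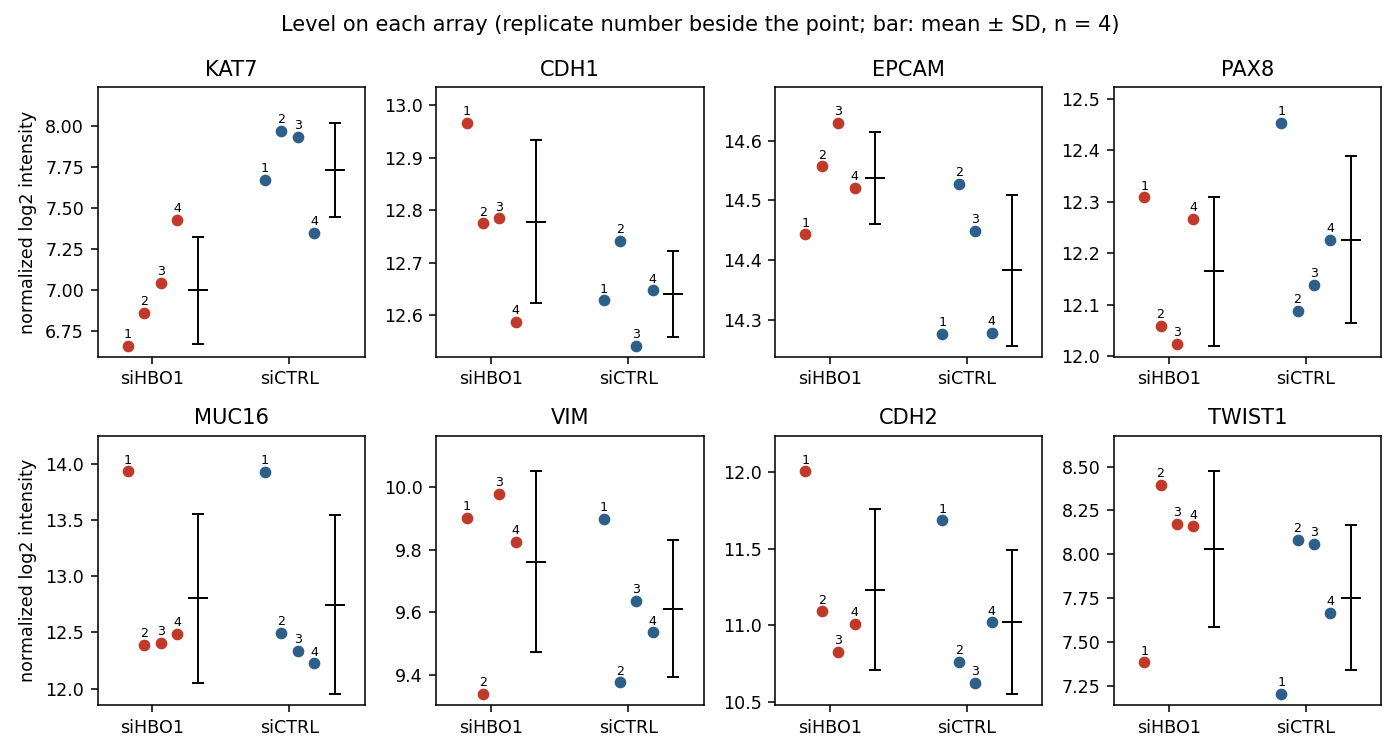
Normalized log2 intensity of KAT7 and of 7 member genes on each array, siHBO1 (red) and siCTRL (blue), with the replicate number beside each point and the mean ± SD of 4 arrays as a bar. Each panel has its own vertical scale, which does not start at 0. The groups overlap in every panel, and MUC16, CDH2 and PAX8 are highest on both replicate 1 arrays.

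Taken probe by probe, the picture was the same. Of the 48 kept probes 30 had a positive and 18 a negative log2 fold change. None passed limma adjusted over all 21377 kept probes (0% of all kept probes passed), and 0 had an unadjusted p under 0.05, against 3.7% of all. With the replicate block 0 of 48 passed, against 0.323% of all, and 2 had an unadjusted p under 0.05, those of TWIST1 and the dimmer probe of VIM, against 7.27% of all. Several kept probes stood behind 13 of the genes, and for 10 of these all of a gene's probes had the same sign.

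By numbered pairs, 5 of the 30 genes (EPCAM, ESRP1, MUC1, SOX17 and TWIST1) were higher in siHBO1 in all 4 pairs, beside 6.96% of all genes, and 0 were lower in all 4, beside 8.66%. These counts rest on the probe that stands for each gene. The other S100A4 probe, ILMN_1684306, was lower in siHBO1 in all 4 pairs. The other probes of EPCAM and MUC1 were not higher in all 4. The pair medians over the 30 genes were 0.05, -0.02, 0.12 and 0.01 for replicates 1 to 4. None of the 5 genes passed the test with the pairs as a block.

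The arrays of replicate 1 stood apart for these genes about as often as for genes at large, whichever siRNA was given. Both lay outside the range of the other 6 arrays for 13 of the 30 genes, beside 38.9% of all genes. For 23 of the 30, or 76.7%, the mean distance of the replicate 1 arrays from the other arrays of their group was larger than the difference between siHBO1 and siCTRL, beside 76.3% of all genes. Both replicate 1 arrays lay above all other 6 for 8 genes, namely MUC16, CDH2, DSP, CLDN4, WFDC2, MUC1, PAX8 and DSG2, beside 16.2% of all genes. They lay below all other 6 for 5 genes, namely TWIST1, RAB25, WT1, OVOL2 and ELF3, beside 22.7% of all genes. MUC16 was farthest, 1.51 higher on siHBO1 replicate 1 and 1.58 higher on siCTRL replicate 1 than the mean of the other 3 arrays of the group (2.91-fold on average). CDH2 stood 1.03 and 0.88 higher on the siHBO1 and siCTRL replicate 1 arrays, and TWIST1 0.86 and 0.73 lower. CD68, an immune marker, was also high on both, at 12.31 on siHBO1 replicate 1 and 12.27 on siCTRL replicate 1, with the other siHBO1 arrays between 10.09 and 10.29 and the other siCTRL arrays between 10.11 and 10.26. Its part in the values of the members was not tested. The labels do not say what the arrays of 1 number share.

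**Figure D4:**
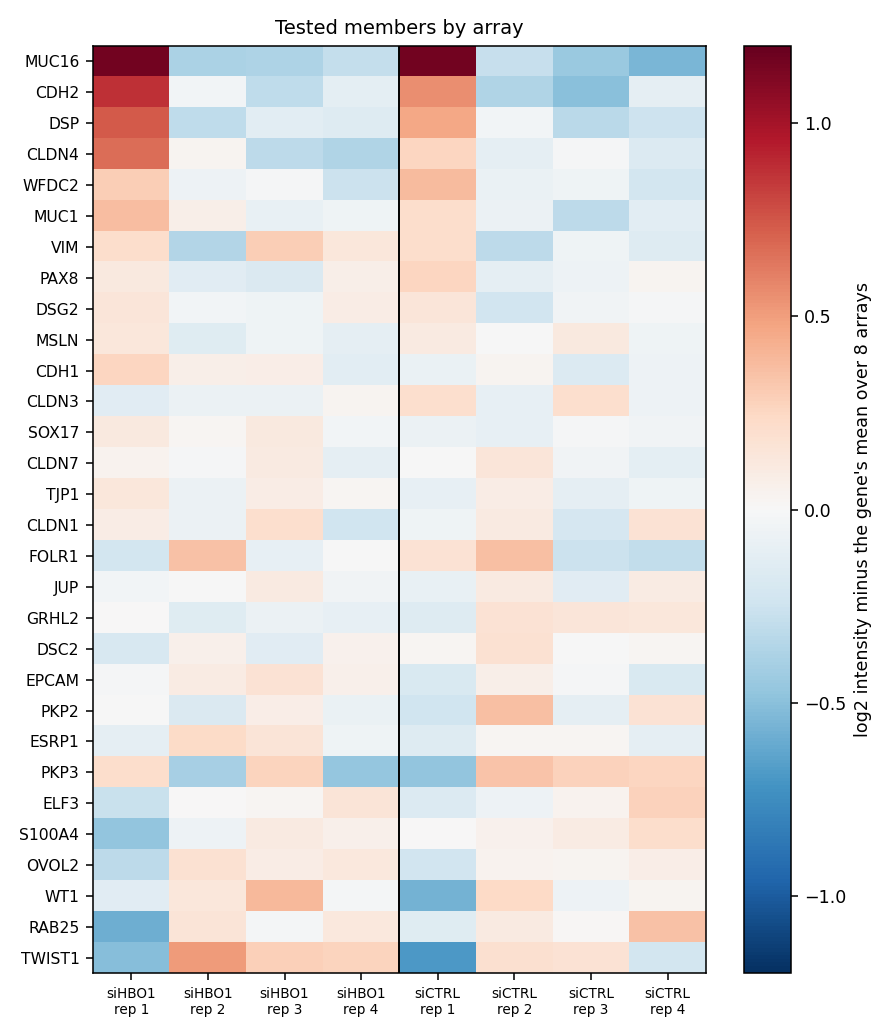
Log2 intensity of each tested gene on each array minus the gene's mean over the 8 arrays, siHBO1 left and siCTRL right, with genes ordered by their distance on the replicate 1 arrays. Both replicate 1 columns stand out, from MUC16 (high on both) down to TWIST1 (low on both), and no gene separates all 4 siHBO1 columns from all 4 siCTRL columns.

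Further genes of the same programmes, in lists set beside the members, gave 0 called genes with limma, without and with the replicate block. Of other adherens junction and nectin genes 8 were tested, with a median of 0.04; NECTIN2 stood at 0.18 and VCL (vinculin) at 0.13. Of other tight junction genes 15 were tested, with a median of 0.01; CLDN9 stood at -0.29 and CLDN8 at -0.13. Of other desmosome genes 6 were tested, with a median of 0.03; periplakin (PPL) stood at -0.27 and DSC1 at 0.12. Polarity genes, which place the junctions, had a median of -0.01 over 12, with PARD6G at 0.29 and PARD6A at -0.28.

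Other epithelial genes had a median of 0.03 over 15, with GRHL3, a grainyhead factor, at 0.30 and the receptor ERBB3 at 0.17. Other genes of ovarian tumours or tubal epithelium had a median of 0.05 over 17, with the kallikrein peptidases KLK10 at 0.30 and KLK8 at 0.22. KLK10 was the 1 gene of that list with an unadjusted p under 0.05, where 3.79% of all genes stood. Its groups did not overlap, as for 2.82% of all genes. With the replicate block 3 of the 17 were under 0.05, all higher in siHBO1, where 7.6% of all genes stood. TGF-beta and BMP signalling genes had a median of -0.02 over 14, with the inhibitors of differentiation ID3 at 0.36 and ID2 at 0.26. In this list ID3 was the 1 gene with an unadjusted p under 0.05, where 3.79% of all genes stood. Its unadjusted p was 0.0239 in limma, or 0.00373 with the replicate block (adjusted p = 0.303). With the block 2 of the 14 were under 0.05, where 7.6% of all genes stood. The other was SMAD2 at -0.37, with an unadjusted p of 0.0278 in limma with the block (adjusted p = 0.554).

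The other mesenchymal genes held the largest differences of these lists, in both directions. Their median was -0.02 over 16, with 8 positive and 8 negative. Of the 16, 3 had an unadjusted p under 0.05, beside 3.79% of all genes (LOX, AXL and ITGA5, the last named after its value was seen). With the replicate block 5 of the 16 were under 0.05, 1 higher and 4 lower in siHBO1, beside 7.6% of all genes. LOX, which crosslinks collagen, had log2 intensities of 8.30, 8.24, 7.92 and 8.04 on siHBO1 replicates 1 to 4, against 7.74, 7.21, 7.30 and 7.44 on siCTRL replicates 1 to 4. AXL, a receptor tyrosine kinase of mesenchymal carcinoma cells, had log2 intensities of 7.19, 7.84, 7.67 and 7.60 on siHBO1 replicates 1 to 4, against 8.06, 8.18, 8.69 and 8.09 on siCTRL replicates 1 to 4. In each the groups did not overlap, as for 2.82% of all genes, and these are the 2 genes of the list with the smallest p. The log2 fold changes were 0.70 for LOX (SE 0.14, limma adjusted p = 0.264, or 0.0756 with the block) and -0.68 for AXL (SE 0.18, limma adjusted p = 0.609, or 0.182 with the block), so neither passed.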

How the data were processed

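RNA from 8 OVCAR-3 samples (4 siHBO1, 4 siCTRL, grouped by the sample titles) was profiled on single-colour Illumina expression BeadChips. The deposited file gives a linear intensity per probe and array, not normalized and with the background left in (lowest value 132), and a detection p-value beside it, in steps of 1 in 770. The authors' processed values, also deposited, appear to lie on a log2-like scale (the exact scale stays unknown), with column medians of 6.57 for replicates 1 to 3 and 6.63 for replicate 4. GenomeStudio and lumi are named in the submitters' processing notes without roles, and the genome build is not given in the sources used here.

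Intensities were corrected with nec of limma 3.58.1 (R 4.3.3, offset 16) and log2-transformed, then quantile-normalized. Probes detected on at least 4 arrays were kept (21377), and each gene was represented by the brightest of them on average, which left 17297 genes or unnamed probes. Of 47312 probes, 30108 carry 1 gene symbol, 8 several and 17196 none in the annotation supplied. The fit was lmFit and eBayes over the whole table, 2-sided, with Benjamini-Hochberg adjustment, and was tested on simulated data. A second fit took every kept probe. The number of arrays limits the precision.

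Deviations from the group means correlated across genes between same-numbered arrays at 0.783, 0.324, 0.397 and 0.217 for replicates 1 to 4. Each is over 0.1, by which same-numbered arrays count as paired. Blocked counts of genes under a p threshold are given beside the unblocked ones, with blocked p-values for some of the genes. Among replicates 2 to 4, every array except siCTRL replicate 3 had a higher correlation with some array of a different number. Values on every array are given for members with an unadjusted p under 0.05 in any of these fits, for members whose groups lie apart, and for CDH1, EPCAM, PAX8, MUC16, WFDC2, VIM and CDH2 whatever their values; of the other lists, the 2 genes with the smallest p are named. The members and lists were chosen with earlier results of these data known. List genes with no probe under their symbol are not analysed here. Alternatives tried were other scalings, background corrections, filters, probe choices, limma-trend, array weights, the authors' values, the block, and each replicate left out.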

Additional observations from a re-analysis of the deposited data

Results flagged for a closer look

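Of 60 groups of 4 arrays checked (30 genes in 2 groups), 6 held an array far from the other 3 by Dixon's ratio, where chance flags about 1 in 20. All 6 are replicate 1 arrays. MUC16 stood at 13.93 on siHBO1 replicate 1, with the other siHBO1 arrays between 12.39 and 12.49, and at 13.93 on siCTRL replicate 1, with the other siCTRL arrays between 12.22 and 12.50. DSP stood at 12.59 on siHBO1 replicate 1, with the other siHBO1 arrays between 11.55 and 11.72. On siCTRL replicate 1, PKP3 stood at 7.49 with the other siCTRL arrays between 8.22 and 8.31, GRHL2 at 8.59 with the others between 8.89 and 8.92, and OVOL2 at 12.23 with the others between 12.49 and 12.54. Median intensity was 240 on siHBO1 replicate 1 and 224 on siCTRL replicate 1, the lowest 2 of the 8 arrays, and the part of this in the values was not tested.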

How the results depend on the processing

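Under all 30 alternatives, 0 of the member genes tested passed, with 0 to 3 at an unadjusted p under 0.05; the lowest adjusted p was 0.369, with array weights. The count over the whole table, 6, moved to 0 under median scaling, with no normalization, with the authors' values and with probes detected on at least 1 array, to 16 with no background correction, 11 with an offset of 50, 68 with array weights, 58 with the replicate block, 94 with the block and median scaling and 58 with the block and the authors' values. Over every kept probe it moved to 69 with the block, against 0 without. Leaving out arrays gave 0 to 31, with 18 without both replicate 1 arrays, and 0 when any of siHBO1 or siCTRL replicates 2, 3 or 4 was left out alone. KAT7 passed under the block with median scaling (-0.72, adjusted p = 0.0107) and without replicate 4 with the block (-0.9995, adjusted p = 0.0435), and not under the others. WFDC2, at -0.02, changed sign under median scaling (0.012, with and without the block), with array weights (0.039) and without some replicates (0.0004 to 0.108, and 0.0065 without replicate 1 with the block). MUC16 ran from -0.32 without siHBO1 replicate 1 to 0.45 without siCTRL replicate 1, CDH2 from -0.048 without siHBO1 replicate 1 to 0.430 without siCTRL replicate 1, and PAX8 from -0.110 without siHBO1 replicate 1 to 0.013 without siCTRL replicate 1. MUC16 was also negative at -0.03, -0.08 and -0.12 without siCTRL replicate 2, 3 or 4 and at -0.012 without replicate 4 in both groups, with and without the block. The cause was not tested. The mesenchymal median, 0.18, moved by more than the SD of its 4 pair medians in 10 of the 30 alternatives, with -0.02 under no filter, which adds SNAI1, SNAI2, ZEB1 and ZEB2, 0.03 without siHBO1 replicate 1, 0.10 without siCTRL replicate 2 and 0.24 with the mean of a gene's probes. No scaling moved the median of all genes by over 0.1. Dim probes, such as that of CLDN4, have values near the background, which limits what a difference there can show.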
